A study of Mus musculus with 24 samples.

Results

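Liver RNA of male mice at weaning, on postnatal day 21, was compared between the R-Cyp1b1-null line and wild type when both had dams on a vitamin A deficient diet. The comparison holds 6 of the 24 arrays of the series, chosen by their labels alone: 3 of R-Cyp1b1-null and 3 of wild type liver, with 1 of each on each of 3 slides. The wild type was C57Bl/6J, and R-Cyp1b1-null is a substrain of the Cyp1b1-null mice that does not readily become obese on an obesogenic diet. In both groups the dam ate the deficient diet from embryonic day 4.5 and the offspring stayed under it to the end, so the diet is shared and the line is what differs. Wild type samples 1 and 2 and each R-Cyp1b1-null sample were pools of 2 mice, and wild type sample 3 was 1 mouse. Which part of Cyp1b1 the null allele lacks, what else the line carries and which mice were littermates are details that the sources used here do not give. The null allele and other differences between the lines therefore cannot be told apart.

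Signals are given as log2 of the processed spot signal minus the 75th percentile of the array, and differences as R-Cyp1b1-null minus wild type on that scale. The 75th percentile lay between 155.2 and 374.4. Wild type arrays had 59.4% to 81% of probes well above background, and R-Cyp1b1-null arrays 33.7% to 59.3%. The median correlation with the other 5 arrays was 0.797 for wild type sample 3 and 0.945 to 0.973 for the others, so results are given with and without that sample. Wild type liver always lay at position 2 of a slide and R-Cyp1b1-null liver at position 4, so array position and line cannot be told apart. All 18 hepatocyte markers measured were well above background on all 6 arrays, with a summed level (signal over the 75th percentile) of 2971 to 10740 in wild type and 7790 to 10290 in R-Cyp1b1-null liver.

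Vitamin A is carried to the liver as retinol, stored there as retinyl esters and oxidised to retinoic acid, which acts through nuclear receptors that regulate transcription. Cyp1b1 is a cytochrome P450 that can oxidise oestradiol, retinoids and fatty acid derivatives. Weaning liver passes from milk fat to a diet rich in carbohydrate, and lipogenic enzymes, the major urinary proteins and the iron hormone hepcidin are all regulated around that time. Hepcidin, the product of Hamp, is secreted by hepatocytes and blocks iron export from other cells. Its gene is driven by bone morphogenetic proteins (BMP) and SMAD factors when iron is plentiful and by STAT3 in inflammation.

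The promoters of the 2 hepcidin genes are shown because both genes were called with the slide in the model and their products are close relatives. They are the 250 bases before the start of each gene in RefSeq (GRCm38.p6, minus strand), for Hamp chr7:30944030-30944279 and for Hamp2 chr7:30924182-30924431. Capitals mark the core of the BMP-responsive element, GGCGCC, and the STAT site TTCNNNGAA, searched on both strands.
Hamp: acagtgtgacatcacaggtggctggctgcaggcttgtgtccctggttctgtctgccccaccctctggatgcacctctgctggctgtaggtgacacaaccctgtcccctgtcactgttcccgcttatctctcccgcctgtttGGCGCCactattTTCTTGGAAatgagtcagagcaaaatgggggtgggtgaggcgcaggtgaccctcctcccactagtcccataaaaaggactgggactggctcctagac
Hamp2: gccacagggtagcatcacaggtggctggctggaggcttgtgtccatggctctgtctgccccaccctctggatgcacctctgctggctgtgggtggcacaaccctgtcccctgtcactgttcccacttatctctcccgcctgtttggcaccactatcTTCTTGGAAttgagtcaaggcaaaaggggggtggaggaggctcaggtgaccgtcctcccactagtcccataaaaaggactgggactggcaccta
The GGCGCC core began 109 bases before the start of Hamp, and these letters had no match in the Hamp2 window. The STAT site read TTCTTGGAA in both, 97 and 94 bases before the start. No match overlapped another. Of 32851 promoter windows in the table, each 300 bases long with 50 bases after the start, 11.9% held GGCGCC and 8.3% held TTCNNNGAA. Over those windows the 2 promoters were 91.1% identical, in 276 of 303 aligned columns.

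Genes of the mitotic cell cycle were another group in which most members lay higher in R-Cyp1b1-null liver, so 2 of their promoters are shown, from 100 bases before to 30 bases after the start (GRCm38.p6, minus strand), at chr9:70421525-70421654 for Ccnb2 and chr4:118437314-118437443 for Cdc20. Capitals mark the CCAAT box, bound by NF-Y, and the cell cycle homology region TTTGAA, both searched on both strands with no overlap between matches.
Ccnb2: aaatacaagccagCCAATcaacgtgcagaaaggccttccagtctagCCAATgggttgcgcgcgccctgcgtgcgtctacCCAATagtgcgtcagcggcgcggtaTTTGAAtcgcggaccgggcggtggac
Cdc20: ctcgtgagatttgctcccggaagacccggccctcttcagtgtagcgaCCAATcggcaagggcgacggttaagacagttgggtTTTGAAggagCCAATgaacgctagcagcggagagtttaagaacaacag
Of 24 cell cycle genes with a promoter entry, 12 (50%) held TTTGAA and 19 (79.2%) held CCAAT in their 300-base windows, against 17.9% and 37.4% of all windows. The promoters of the cell cycle genes Plk1 and Birc5 were searched too and are not shown. In Plk1 CCAAT began 14 bases before the start and TTTGAA at base 31 from it. Birc5 held neither. Such matches describe the letters and do not show that a site is used.

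Across the 18192 genes measured, limma called none in either direction at a Benjamini-Hochberg adjusted p under 0.05 (0%), with 331 higher and 2982 lower in R-Cyp1b1-null liver at an unadjusted p under 0.05. The smallest adjusted p was 0.0529. Without wild type sample 3 the count was again 0 (0%), with 209 higher and 1480 lower at an unadjusted p under 0.05 and a smallest adjusted p of 0.0558. Leaving out another array gave 2740 calls (134 higher and 2606 lower) without wild type sample 2, 5 without wild type sample 1, 3 without R-Cyp1b1-null sample 1 and 0 without R-Cyp1b1-null sample 2 or 3. With the slide as a block 9 genes were called: Hamp, TC1586030, Ren2, AK089085, Acot1, Ctse, Scd1 and Hamp2 rose (0.044% of genes) and Dhrs7c fell (0.0055%). That block fit left 2 residual degrees of freedom, with 47.8 more taken from the other genes, and it made 0 calls without wild type sample 3 (smallest adjusted p = 0.256).

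The direction of the differences varied with the signal of the probes. Among the 6064 genes with the highest mean signal over the 6 arrays, 201 lay higher and 3 lower at an unadjusted p under 0.05, with a median difference of 0.71, or 0.27 without wild type sample 3. Among the 6064 with the lowest mean signal, 34 lay higher and 2243 lower, with a median of -1.05, or -0.65 without that sample. The 6064 between them had 96 higher and 736 lower and a median of 0.05. In all, 2959 of the 2982 lower genes (99.2%) were not well above background on every R-Cyp1b1-null array, a state that a lower signal itself brings about, and 893 on none of them. The median over all genes was 0.12 with wild type sample 3 and -0.07 without it, and single differences are best read against these values. With each array centred on its median in place of the 75th percentile, that overall median was 0.95, and 0.50 without wild type sample 3.

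**Figure D1:**
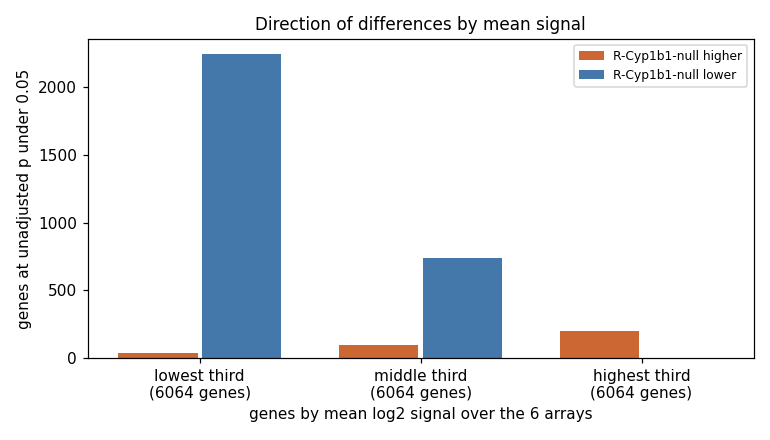
Number of genes (y axis) with an unadjusted limma p under 0.05, higher or lower in R-Cyp1b1-null liver, for 3 classes of 6064 genes by mean log2 signal over the 6 arrays (x axis). Most lower genes lie in the dimmest class (2243, against 736 and 3), and most higher genes in the brightest (201, against 96 and 34).

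Hamp, which encodes hepcidin, had the smallest p of all genes with the slide as a block. Its probe (chr7:31727490-31727549, mm9) measured -4.10, -4.98 and -5.50 in wild type liver, where no array was well above background. It measured -0.63, -0.54 and 5.67 in R-Cyp1b1-null liver, well above background on all 3 arrays. The groups did not overlap, and R-Cyp1b1-null sample 3 stood far above its group. The mean of R-Cyp1b1-null liver was at least 32.2-fold above the detection limit of the wild type arrays. Here and below each ± is limma's moderated standard error, which draws in part on the spread of other genes. The difference was 6.36 ± 1.25 (n = 3 and 3, limma adjusted p = 0.231), or 4.39e-06 as the adjusted p with the slide as a block. It was 6.04 ± 1.69 without wild type sample 3 (adjusted p = 0.534) and 4.28 without R-Cyp1b1-null sample 3. Within slides 1, 2 and 3 it was 3.47, 4.44 and 11.17. These differences are set against background in wild type liver.

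Hamp2, the second hepcidin gene of the mouse, went with it and was well above background on all 6 arrays. It measured 1.33, 0.23 and -1.29 in wild type liver and 2.71, 2.46 and 5.75 in R-Cyp1b1-null liver. Again the groups did not overlap and R-Cyp1b1-null sample 3 was the highest array. The difference was 3.56 ± 0.85 (adjusted p = 0.231), 0.0283 as the adjusted p with the slide as a block, 2.87 ± 0.93 without wild type sample 3 and 2.50 without R-Cyp1b1-null sample 3. Whether the probes tell the 2 paralogs apart was not tested.

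The other genes of iron handling and BMP signalling had smaller differences. Of 27 measured beside the 2 hepcidin genes, 22 lay higher and 5 lower, with a median of 0.53 against 0.71 for the brightest 6064 genes. Without wild type sample 3 the median was -0.0075, with 13 higher and 14 lower. In 7 of the 27 (25.9%) the 3 R-Cyp1b1-null arrays lay above every wild type array and in 2 (7.41%) below, against 12.3% and 14.4% of all genes and 26.1% and 0.28% of the brightest 6064. The SMAD target gene Id1 differed by 0.49 ± 0.53, and Smad6, a BMP-induced inhibitor of the same pathway, by 0.86 ± 0.51. Slc40a1, the iron exporter that hepcidin removes from membranes, differed by 0.61 ± 0.58, and the transferrin receptor Tfrc by 0.15 ± 0.59. Steap3, an endosomal ferric reductase, differed by -1.42 ± 0.50 and was well above background on no R-Cyp1b1-null array. Acute phase genes, another set that inflammation induces, had a median of 0.52 over 30 genes, and -0.10 without wild type sample 3.

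**Figure D2:**
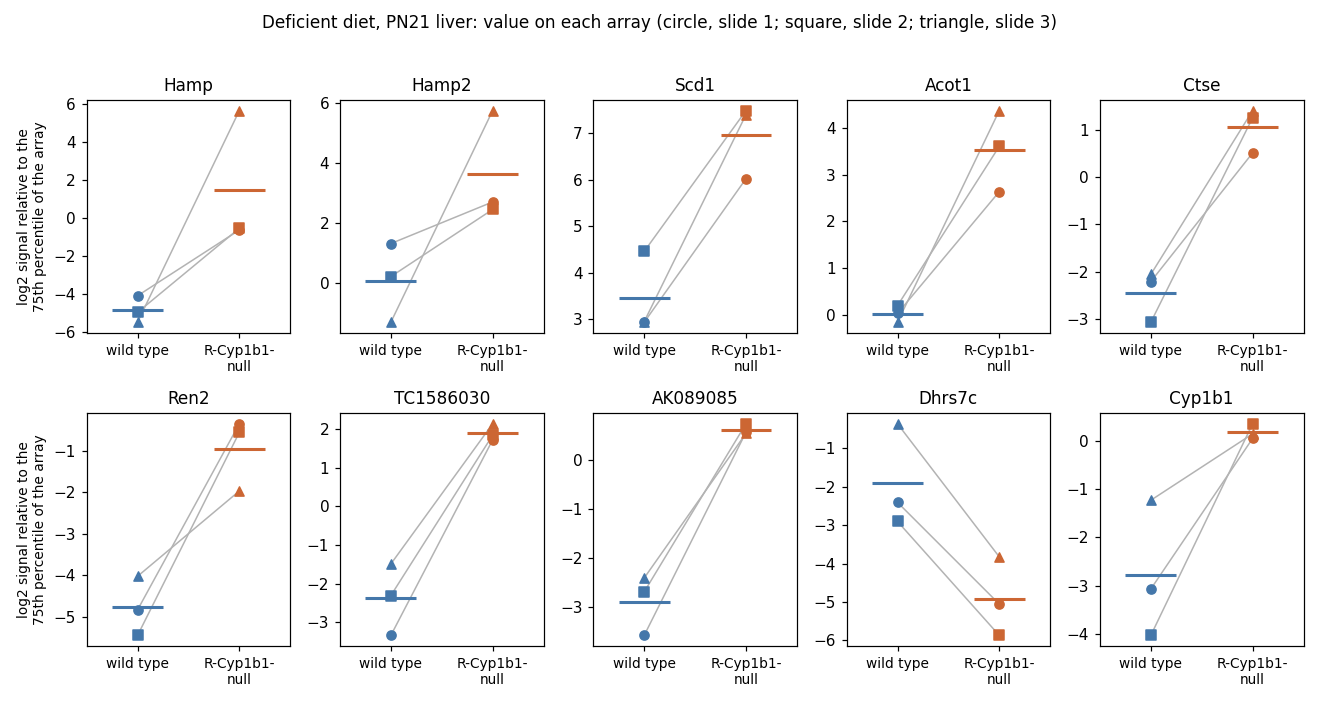
Log2 signal relative to the 75th percentile of the array (y axis) in wild type and R-Cyp1b1-null liver for the 9 genes called with the slide as a block and for Cyp1b1. Points are arrays, grey lines join arrays of a slide and bars are means of 3. In every panel the 3 R-Cyp1b1-null arrays lie on one side of the 3 wild type arrays. The wild type points of Hamp and Ren2 and the R-Cyp1b1-null points of Dhrs7c are not well above background.

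Scd1, the stearoyl-CoA desaturase that makes monounsaturated fatty acids, also rose with the slide as a block. Its probe (chr19:44469387-44469446, mm9) measured 2.94, 4.46 and 2.95 in wild type liver and 6.02, 7.49 and 7.40 in R-Cyp1b1-null liver. The lowest R-Cyp1b1-null array lay above the highest wild type array. The difference was 3.52 ± 0.60 (adjusted p = 0.156), 0.00496 as the adjusted p with the slide as a block, and 3.27 ± 0.61 without wild type sample 3 (adjusted p = 0.534). Scd1 belongs to the genes of fatty acid synthesis, of which 32 of 35 lay higher and 3 lower, with a median of 0.89, or 0.63 without wild type sample 3. Scd1 was the only member that passed in that block fit. In 11 members (31.4%) the R-Cyp1b1-null arrays lay above every wild type array and in 1 (2.86%) below. The shares were 12.3% and 14.4% of all genes, and 26.1% and 0.28% of the brightest 6064. Well above background on all 6 arrays were 32 of the 35 members. Of all 10162 such genes 8761 lay higher and 1401 lower, with a median of 0.60, or 0.22 without wild type sample 3.

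The next lipogenic genes by p were Me1, Elovl6 and Insig2. Me1, the cytosolic malic enzyme that makes NADPH for fatty acid synthesis, measured 0.26, 1.39 and 0.61 in wild type liver and 2.00, 3.15 and 3.73 in R-Cyp1b1-null liver. The difference was 2.21 ± 0.58 (adjusted p = 0.231). Elovl6, which elongates palmitate, differed by 1.85 ± 0.61, and Insig2, a sterol sensor of the endoplasmic reticulum, by 1.79 ± 0.62. Fasn, fatty acid synthase, named here for its role, differed by 1.55 ± 0.61. Srebf1, which encodes the transcription factor of this group, differed by 0.52 ± 0.54, and its target Pnpla3 measured -0.25, -0.35 and 0.88 in wild type liver and -0.87, -0.07 and -0.21 in R-Cyp1b1-null liver. Among genes of cholesterol synthesis 25 of 26 lay higher with wild type sample 3 (median 0.49, or -0.03 with quantile normalization) but 10 of 26 without it (median -0.04). In that group Srebf2, its transcription factor, differed by 0.25 ± 0.52 and Sqle, squalene epoxidase, by 0.46 ± 0.70.

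Acot1 encodes a cytosolic acyl-CoA thioesterase and is a textbook target of PPARα, the fatty acid receptor of hepatocytes. Its probe (chr12:85358452-85358511, mm9) measured 0.02, 0.19 and -0.17 in wild type liver, a narrow range. It measured 2.64, 3.61 and 4.38 in R-Cyp1b1-null liver, so that the groups were far apart. The difference was 3.53 ± 0.55 (adjusted p = 0.0684), 0.00496 as the adjusted p with the slide as a block, and 3.43 ± 0.52 without wild type sample 3 (adjusted p = 0.472). Close paralogs lie beside Acot1 in the genome, and whether this probe reads them too was not tested.

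Among 38 PPARα targets and genes of fatty acid oxidation 37 lay higher, with a median of 1.06, or 0.62 without wild type sample 3. In 23 of them (60.5%) the R-Cyp1b1-null arrays lay above every wild type array and in 0 below. The shares were 12.3% and 14.4% of all genes, and 26.1% and 0.28% of the brightest 6064. Acot1 was the only one that passed with the slide as a block, and 11 had an unadjusted p under 0.05. The fatty acid hydroxylase Cyp4a10 measured 4.88, 5.55 and 4.54 in wild type liver and 6.55, 6.25 and 8.02 in R-Cyp1b1-null liver, a difference of 1.95 ± 0.58 (adjusted p = 0.231). Cyp4a14, a related hydroxylase, differed by 1.77 ± 0.57, the peroxisomal enzyme Ehhadh by 1.74 ± 0.55 and the lipid droplet protein Plin2 by 1.58 ± 0.56. Ppara itself differed by 1.00. With quantile normalization the medians of the oxidation and lipogenesis groups were 0.51 and 0.50, against 0.07 for all genes and 0.13 for the brightest 6064.

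The cell cycle group had the highest median of the 38 lists. Of 30 genes 25 lay higher and 5 lower, with a median of 1.45, 1.49 without wild type sample 3 and 1.43 with quantile normalization. In 18 (60%) the R-Cyp1b1-null arrays lay above every wild type array and in 0 below, against 12.3% and 14.4% of all genes and 26.1% and 0.28% of the brightest 6064. At an unadjusted p under 0.05 stood 18 higher and 1 lower, against 331 and 2982 of all 18192 genes. None passed with the slide as a block. Plk1, the polo-like kinase of mitotic entry, measured -0.90, -0.87 and -1.42 in wild type liver and 0.16, 1.43 and 3.26 in R-Cyp1b1-null liver. Its difference was 2.68 ± 0.69 (adjusted p = 0.231), and 2.50 ± 0.78 without wild type sample 3 (adjusted p = 0.534).

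Other mitotic genes showed the same order of arrays. Ccnb2, a B-type cyclin, measured 0.26, 0.42 and -0.39 in wild type liver and 1.25, 2.18 and 3.34 in R-Cyp1b1-null liver. Cdc20, an activator of the anaphase-promoting complex, measured 0.60, 1.08 and 0.55 in wild type liver and 1.94, 2.72 and 4.57 in R-Cyp1b1-null liver. In all 3 genes R-Cyp1b1-null sample 3 was the highest array and sample 1 the lowest of its group. Ccnb2 differed by 2.16 ± 0.59, Cdc20 by 2.33 ± 0.64, the survivin gene Birc5 by 2.14 ± 0.59 and the exchange factor of cytokinesis Ect2 by 2.66 ± 0.65. Ect2 was not well above background on all 6 arrays, and its difference ranged from 0.89 to 3.77 over the alternative fits. Of genes named for their role, Mcm6, a subunit of the replication helicase, differed by 1.28, the replication clamp Pcna by 1.32 and Top2a, a topoisomerase, by 0.15 ± 0.50. Kif11, a mitotic kinesin, differed by -1.69 ± 0.68, which turned to 0.099 with a probe well above background on all 6 arrays. The group's median was 0.46, 1.42 and 2.65 within slides 1, 2 and 3, and 1.07 without R-Cyp1b1-null sample 3. All genes well above background on all 6 arrays had medians of 0.17, 0.02 and 1.66 within these slides.

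**Figure D3:**
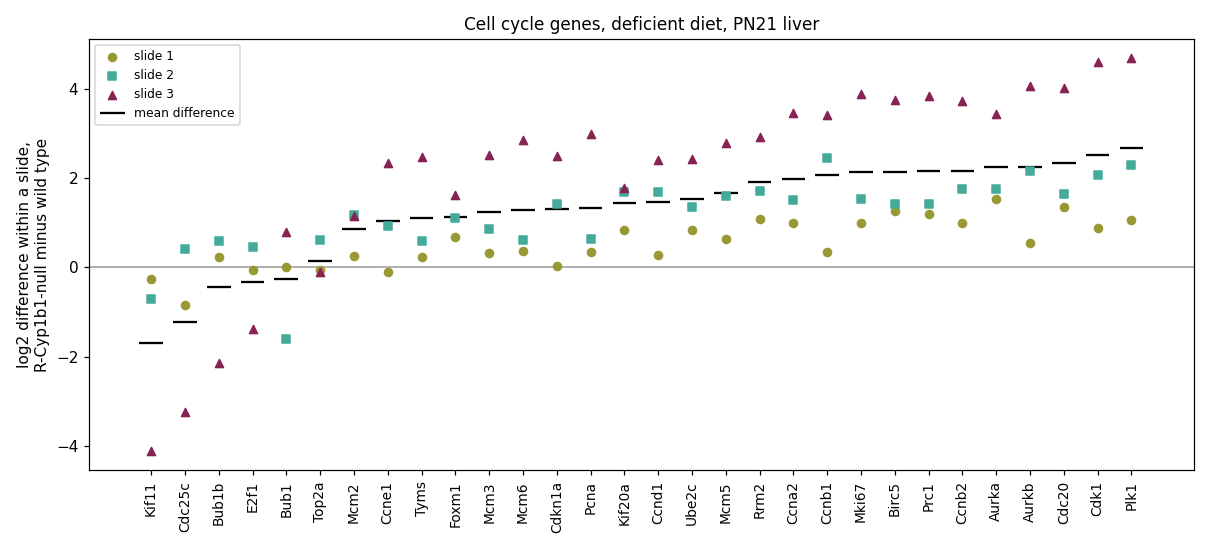
Log2 difference within each slide (y axis) for the 30 cell cycle genes measured (x axis), ordered by their mean difference, drawn as a bar. Most genes lie above 0 on all 3 slides, and slide 3, which carries sample 3 of both lines, gives the largest differences for most of them (median 2.65, against 0.46 and 1.42). The list's median is 1.49 without wild type sample 3 and 1.07 without R-Cyp1b1-null sample 3. All genes well above background on all 6 arrays have medians of 0.17, 0.02 and 1.66 within slides 1, 2 and 3.

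Major urinary proteins, pheromone carriers that male mouse liver makes in large amounts under growth hormone, also lay higher. Mup3 measured 1.95, 3.92 and 3.49 in wild type liver and 4.09, 7.05 and 6.87 in R-Cyp1b1-null liver, with sample 1 the lowest in both groups. The difference was 2.88 ± 0.77 (adjusted p = 0.231), and 3.07 ± 0.94 without wild type sample 3. Mup5 differed by 2.64 ± 0.67 and Mup4 by 2.37 ± 0.72. These genes are near-identical copies, so their probes may share signal. Hsd3b5, a male-specific steroid reductase, differed by 1.71 ± 0.62. Of the 31 male-biased and female-biased genes 24 lay higher and 7 lower, with a median of 0.61, or 0.26 without wild type sample 3. Over members well above background on all 6 arrays the medians were 0.73 and 0.26, against 0.60 and 0.22 for all such genes. In 6 (19.4%) the R-Cyp1b1-null arrays lay above every wild type array and in 0 below. The shares were 12.3% and 14.4% of all genes, and 26.1% and 0.28% of the brightest 6064. The list as a whole thus stood near other bright genes.

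Genes of retinoid metabolism, the pathway the diet deprives of its substrate, lay on both sides of 0. Of 36 measured of 41 listed, 27 lay higher and 9 lower, with a median of 0.61, or 0.19 without wild type sample 3. The arrays did not overlap upward in 7 (19.4%) and downward in 5 (13.9%), against 12.3% and 14.4% of all genes. The shares were 26.1% and 0.28% of the brightest 6064 genes. Of the 36 retinoid genes 28 were well above background on all 6 arrays. None passed with or without the block. Retsat, retinol saturase, which is also a PPAR target, measured 2.92, 3.21 and 0.28 in wild type liver and 4.52, 4.24 and 3.75 in R-Cyp1b1-null liver. Its difference was 2.03 ± 0.70 (adjusted p = 0.231) and 1.10 ± 0.38 without wild type sample 3. Aldh1a1 and Aldh1a7, members of the retinaldehyde dehydrogenase family, differed by 1.45 ± 0.59 and 1.64 ± 0.60.

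Cyp26a1, which degrades retinoic acid and is induced by it, was dim throughout. It measured -3.02, -3.34 and -1.85 in wild type liver, with 2 arrays well above background, and -4.96, -4.26 and -3.66 in R-Cyp1b1-null liver, with none. The groups did not overlap, and the difference of -1.56 ± 0.57 (adjusted p = 0.231) is set against background. Crabp1, a binding protein of retinoic acid, was well above background on every wild type array and on no R-Cyp1b1-null array, at least 1.85-fold lower. Storage and transport genes differed little: Lrat, which esterifies retinol, by 0.24 ± 0.48 and the plasma carrier Rbp4 by 0.28 ± 0.55. Rarb, a retinoic acid receptor gene induced by its ligand, differed by 0.34 ± 0.48. Without wild type sample 3 these 3 genes differed by 0.14, -0.21 and 0.30.

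The targeted gene itself gave signal in the null line. The brighter of the Cyp1b1 probes (chr17:80106547-80106606, mm9) measured -3.07, -4.03 and -1.24 in wild type liver and 0.04, 0.35 and 0.14 in R-Cyp1b1-null liver. The difference was 2.95 ± 0.65 (adjusted p = 0.231), and 3.72 ± 0.40 without wild type sample 3 (adjusted p = 0.084). The second probe (chr17:80100918-80100977, mm9) measured -1.54, -2.27 and 0.50 in wild type liver and -1.45, -2.81 and -3.51 in R-Cyp1b1-null liver, a difference of -1.49. The mean of the probes differed by 0.73, and neither probe was well above background on all 6 arrays. The sources used here do not say whether a probe lies in the deleted part, so neither checks the genotype. The related Cyp1a1 was well above background on 1 of the 6 arrays, and Cyp1a2 differed by 0.70 ± 0.88. Of the 40 measured genes nearest to Cyp1b1, 20 on each side, 7 lay higher without overlap (17.5%) and 5 lower (12.5%), against 12.3% and 14.4% of all genes, and none was called with or without the block.

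Several of the strongest differences were in single genes outside these groups. Ctse, the aspartic protease cathepsin E (probe chr1:133571935-133571994, mm9), measured -2.21, -3.07 and -2.06 in wild type liver and 0.51, 1.25 and 1.40 in R-Cyp1b1-null liver. Its difference was 3.50 ± 0.52 (adjusted p = 0.0684), 0.00496 as the adjusted p with the slide as a block, and 3.69 ± 0.44 without wild type sample 3 (adjusted p = 0.134). Ctse was not well above background on all 6 arrays, so part of this difference may be set against background. The renin probe, annotated to Ren2, measured -4.83, -5.45 and -4.02 in wild type liver, well above background on no array, and -0.34, -0.55 and -1.96 in R-Cyp1b1-null liver, well above background on 2. It rose at least 5.89-fold, called in the block fit (adjusted p = 0.00357). C57BL/6 mice carry the renin gene Ren1 and lack Ren2, and whether this probe tells the 2 apart was not tested.

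TC1586030 and AK089085 are transcripts for which the files give no gene symbol. TC1586030 measured -3.34, -2.31 and -1.49 in wild type liver and 1.71, 1.84 and 2.13 in R-Cyp1b1-null liver, the smallest p of all genes in the fit without the block (4.27 ± 0.56, adjusted p = 0.0529). AK089085 measured -3.57, -2.68 and -2.40 in wild type liver and 0.58, 0.75 and 0.55 in R-Cyp1b1-null liver (3.51 ± 0.51, adjusted p = 0.0684). Both were nearly constant within the R-Cyp1b1-null group. In the block fit their adjusted p was 0.00024 and 0.00496.

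Genes listed as differing between inbred mouse strains had a median of 0.27. Of 27 measured, 4 (14.8%) lay higher without overlap and 1 (3.7%) lower, against 12.3% and 14.4% of all genes. Ifi202b, an interferon-inducible gene that many strains express and others lack, measured -2.98, -3.51 and -1.64 in wild type liver and -0.59, -0.45 and -1.19 in R-Cyp1b1-null liver (1.96 ± 0.57). Ifi202b was not well above background on all 6 arrays. Wdfy1 differed by 1.79 ± 0.53. Among other genes with small p-values, Csad, which makes the taurine precursor from cysteine, measured 2.59, 3.12 and 1.54 in wild type liver and 4.94, 4.50 and 5.71 in R-Cyp1b1-null liver. Its difference was 2.63 ± 0.57 (adjusted p = 0.231), and 2.19 ± 0.45 without wild type sample 3. The carboxylesterases Ces1f and Ces3b differed by 2.39 ± 0.61 and 2.01 ± 0.53. Ephx1, microsomal epoxide hydrolase, differed by 2.19 ± 0.71 and the glutathione transferase Gstm3 by 1.69 ± 0.55.

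Dhrs7c, a short-chain dehydrogenase known from striated muscle, was the only gene that fell with the slide as a block. It measured -2.41, -2.91 and -0.37 in wild type liver and -5.05, -5.87 and -3.83 in R-Cyp1b1-null liver, where no array was well above background. It was at least 1.77-fold lower, and the difference of -3.02 ± 0.71 (adjusted p = 0.231, and 0.0434 in the block fit) is set against background. A second Dhrs7c probe, well above background on 1 array, differed by -0.69. Skeletal muscle markers, another cell type that tissue samples can hold, lay lower in 14 of 15 genes. Their median was -1.32, or -0.81 without wild type sample 3, against -1.05 and -0.65 for the dimmest 6064 of all genes. Their summed level was 4.39 to 14.58 in wild type and 2.72 to 6.45 in R-Cyp1b1-null liver, and 1 of the 15 was well above background on all 6 arrays. The part of these markers in the difference of Dhrs7c was not tested. The next genes by p among those lower, such as Cbln2, Ghsr and Cnn1 (-2.91, -2.35 and -2.79), were well above background on at most 1 R-Cyp1b1-null array.

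Among genes well above background on all 6 arrays, 8 lower ones were taken by the smallest p without wild type sample 3. That choice favours genes whose difference shows when this sample is left out. Of the 10162 such genes 23 lay lower at an unadjusted limma p under 0.05 with all 6 arrays, and 47 without it. Higher were 295 and 169. Cyp7a1, the rate-limiting enzyme of bile acid synthesis, measured 2.46, 1.89 and -0.53 in wild type liver and 0.01, 0.89 and 0.60 in R-Cyp1b1-null liver. The groups overlapped only through wild type sample 3, and the difference was -0.78 ± 0.70 with it and -1.68 ± 0.41 without it (adjusted p = 0.534). Sult1e1, an oestrogen sulfotransferase, measured 1.06, 0.63 and -1.55 in wild type liver and -0.46, -0.97 and -0.65 in R-Cyp1b1-null liver, a difference of -0.74 with sample 3 and -1.54 ± 0.36 without it. Slc22a7, an organic anion transporter, differed by -0.97 and -1.43 ± 0.38, and Nnmt, which methylates nicotinamide, by -1.26 and -1.74 ± 0.49.

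Interferon-inducible GTPases and sensors were also among them. Tgtp1 measured 2.64, 1.95 and -1.02 in wild type liver and 0.10, 0.56 and 0.55 in R-Cyp1b1-null liver, a difference of -0.78 with wild type sample 3 and -1.89 ± 0.38 without it. Zbp1, a sensor of Z-form nucleic acid, differed by -0.89 and -1.22 ± 0.34, and Gbp8 by -0.91 and -1.11 ± 0.38. Over the 30 interferon response genes the median was 0.30 with sample 3 and -0.18 without it, and 6 (20%) lay lower without overlap and 0 higher, against 14.4% and 12.3% of all genes. Among the 6 were Mx1 and Oas3, antiviral effectors well above background on no R-Cyp1b1-null array. The other interferon genes overlapped. Of the 30, 25 were well above background on all 6 arrays, with a median of 0.37, or -0.03 without wild type sample 3. All 10162 such genes had medians of 0.60 and 0.22. Of the brightest 6064 genes 0.28% lay lower without overlap and 26.1% higher.

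Markers of neutrophils and lymphocytes lay lower, and those of red cell precursors on both sides of 0. Of 15 Kupffer cell and macrophage genes 13 lay higher and 2 lower, with a median of 0.48. Without wild type sample 3 these were 5 and 10, with a median of -0.13. All 12 neutrophil genes measured lay lower, with a median of -1.07, -0.98 without wild type sample 3, -0.73 with quantile normalization and -0.24 with median centring. Their summed level was 9.21 to 15.43 in wild type and 6.14 to 9.66 in R-Cyp1b1-null liver. Mpo, myeloperoxidase of neutrophil granules, measured -0.24, 0.05 and 0.02 in wild type liver and -1.11, -1.24 and -1.78 in R-Cyp1b1-null liver (-1.32 ± 0.48, adjusted p = 0.231). Of 16 lymphocyte genes 14 lay lower, with a median of -0.68 that turned to 0.15 with arrays centred on their median, where all genes had 0.95. Il2rb, an interleukin receptor chain of T and NK cells, differed by -1.33 ± 0.48. Only 2 of the neutrophil and 7 of the lymphocyte genes were well above background on all 6 arrays, with medians of -0.32 and -0.11. The dimmest 6064 of all genes had a median of -1.05, -0.65 without wild type sample 3 and -0.58 with quantile normalization. The 13 erythroid genes measured had 7 higher and 6 lower, with a median of 0.15, or -0.14 without wild type sample 3, and 1 lay higher and 1 lower without overlap (7.69% each). Of the 7 higher, Ahsp, a chaperone of alpha globin, differed by 1.56. The alpha globin gene Hba-a2 differed by 1.26 and Alas2, the erythroid enzyme of haem synthesis, by 1.02. On leaving out 1 array these ranged from 1.24 to 2.02, 0.50 to 1.83 and 0.72 to 1.33. They do not stand for the list, in which 6 genes went the other way. In whole liver, fewer cells of a type and less RNA per cell cannot be told apart, and the part of probe brightness in these shifts was not tested.

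Lists of housekeeping and hepatocyte genes give the scale of the shift that wild type sample 3 brings. Oxidative phosphorylation genes had a median of 0.71 with it and 0.22 without it, cytosolic ribosome genes 0.75 and 0.02, and hepatocyte markers 0.55 and -0.10. With quantile normalization the 3 medians with that sample were -0.04, 0.03 and -0.10. The fetal liver genes Afp and Igf2 differed by 0.05 ± 0.56 and -0.56 ± 0.49. Against that scale, cell cycle, lipogenesis and fatty acid oxidation were the 3 lists with the highest medians in both settings.

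**Figure D4:**
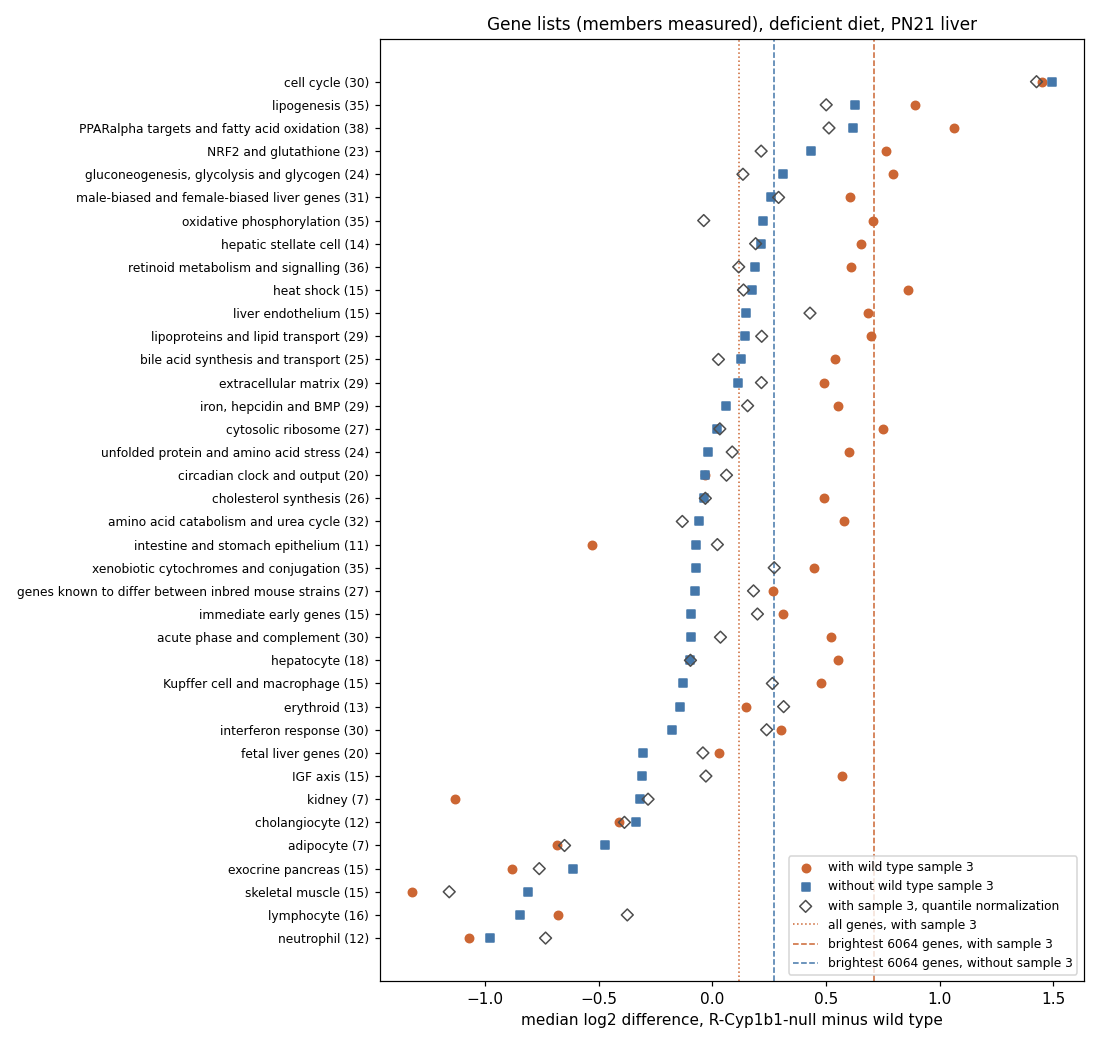
Median log2 difference (x axis) of each of the 38 gene lists, with the number of members measured in brackets, with wild type sample 3 (circles), without it (squares) and with it after quantile normalization (diamonds). Vertical lines give the median of all genes and of the brightest 6064 genes. Cell cycle stands highest at 1.45, 1.49 and 1.43, and neutrophil markers lie at -1.07, -0.98 and -0.73.

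The same lines on the sufficient diet, and the Cyp1b1-null line from which R-Cyp1b1-null derives, place these values. The wild type sufficient samples are 3 arrays of 1 pool of 4 mice, the other groups are pools of 2, and R-Cyp1b1-null sufficient sample 3 correlated poorly with the other arrays (median 0.407 over the 16 arrays of this age). Hamp measured 3.32, 3.73 and 5.23 in the sufficient wild type pool and 1.64, 1.69 and -2.80 in sufficient R-Cyp1b1-null liver. It measured -3.89 and -4.65 in sufficient and 0.27 and -0.71 in deficient Cyp1b1-null liver. The deficient wild type group and the sufficient Cyp1b1-null group were thus the lowest. All Cyp1b1-null arrays of this age shared a slide and a scan day that held no other group, so in comparisons with them line and slide cannot be told apart.

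Scd1 measured 5.90, 6.30 and 6.16 in the sufficient wild type pool, 7.60, 7.12 and 0.11 in sufficient R-Cyp1b1-null liver, and 3.07 and 4.20 in deficient Cyp1b1-null liver. Acot1 measured 0.22, 0.62 and 1.17 in the sufficient wild type pool, 2.41, 4.05 and -0.12 in sufficient R-Cyp1b1-null liver, and 0.60 and 0.50 in deficient Cyp1b1-null liver. Apart from the array of low correlation, Acot1 was thus high in R-Cyp1b1-null liver on either diet and low in the other 4 groups. For Ctse, deficient R-Cyp1b1-null liver lay above deficient Cyp1b1-null liver by 4.44 (adjusted p = 0.0251 in the fit of all groups of this age), and for Ren2 by 3.82 (adjusted p = 0.0265). The sufficient wild type pool was bright for both, at -0.36, -0.02 and 0.94 for Ctse and -0.60, -0.31 and 0.80 for Ren2.

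For other genes the deficient Cyp1b1-null values are given against the same 3 wild type arrays, so the comparisons share their controls and are set side by side only. Deficient Cyp1b1-null liver lay above deficient wild type liver by 2.75 for Cyp1b1 (adjusted p = 0.0307), by 4.18 for TC1586030 (adjusted p = 0.016) and by 3.47 for AK089085 (adjusted p = 0.0417). In sufficient R-Cyp1b1-null liver, however, TC1586030 measured -2.86, 1.70 and -1.41 and AK089085 measured -4.15, 0.70 and -1.57, a spread as wide as that between the lines.

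**Figure D5:**
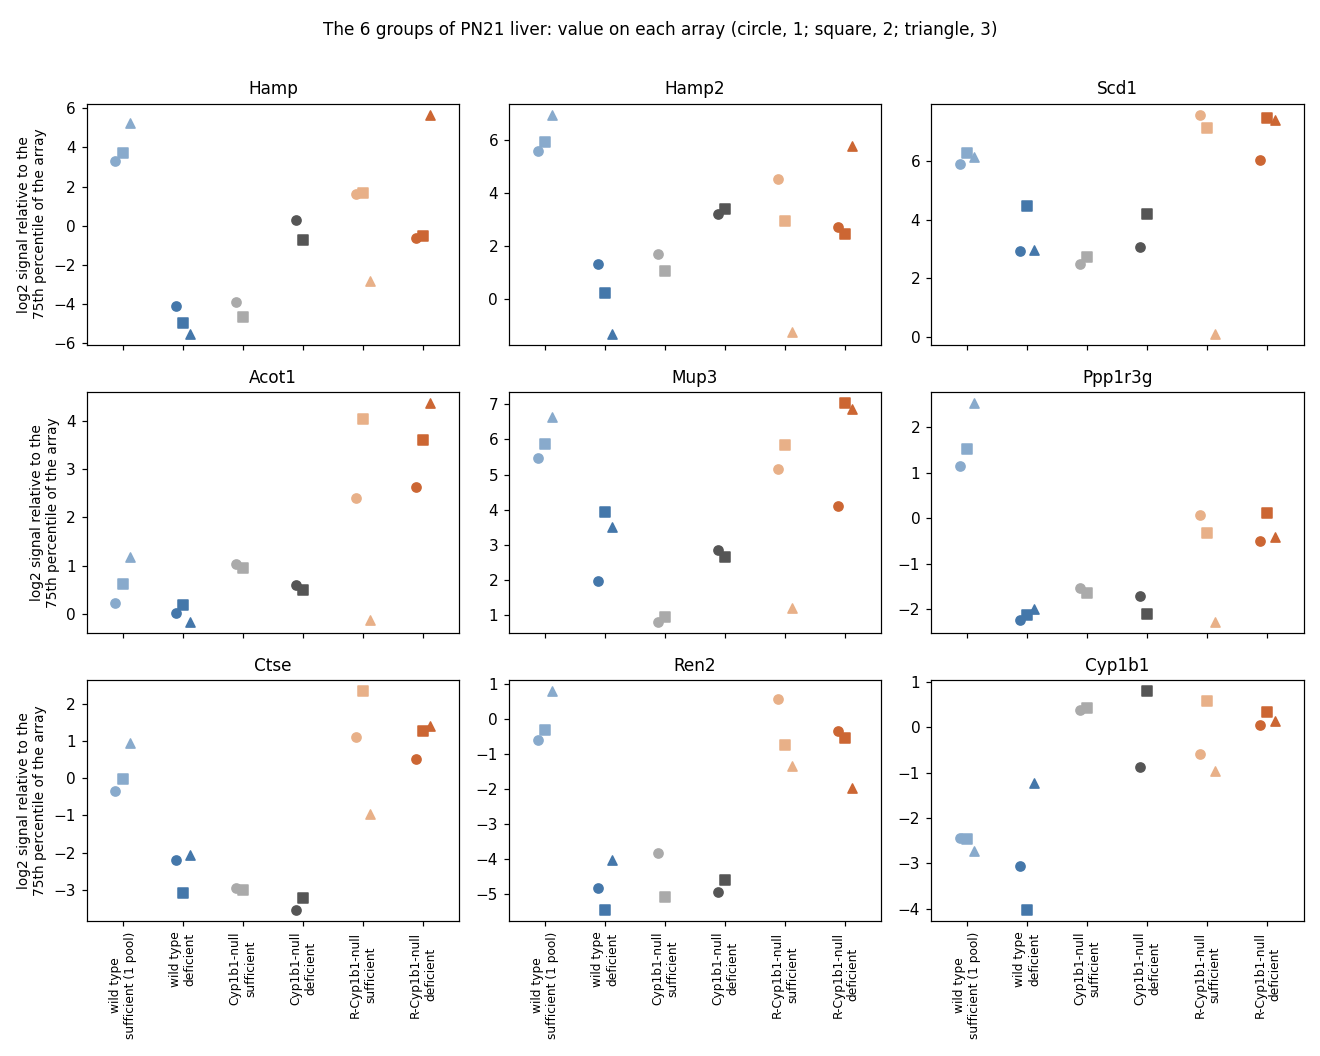
Log2 signal relative to the 75th percentile of the array (y axis) on each of the 16 arrays of this age for 9 genes, in 6 groups by line and diet (x axis). Scd1 and Ctse are high in R-Cyp1b1-null liver of both diets and in the sufficient wild type pool, apart from the triangle of sufficient R-Cyp1b1-null sample 3, and Hamp is lowest in deficient wild type and sufficient Cyp1b1-null liver.

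Whether the difference between the lines itself differed between the diets was tested as an interaction. Of 18192 genes limma called 0 (0%), while 211 had an unadjusted p under 0.05, with a smallest adjusted p of 0.55, and 0 without both arrays of low correlation. Some of the smallest p-values belonged to genes high in the sufficient wild type pool and low in deficient wild type liver. The interaction was 10.28 ± 2.96 for Hamp, 7.63 ± 2.49 for Hamp2 and 4.29 ± 1.19 for Ren2. Hamp and Ren2 were well above background on no deficient wild type array, so their values are set against background. Ppp1r3g, a glycogen-targeting subunit of protein phosphatase, measured -2.22, -2.13 and -2.00 in deficient wild type and -0.50, 0.13 and -0.42 in deficient R-Cyp1b1-null liver, against 1.15, 1.52 and 2.54 in the sufficient wild type pool. Its interaction was 4.43 ± 1.10, and 3.77 ± 0.52 without both arrays. The control of the sufficient diet is 1 pool, so its own spread is assumed to be that of the other groups.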

How the data were processed

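Agilent 1-colour arrays were scanned and read with Feature Extraction 10.7.3.1, per the file headers, and the intensity used is the deposited processed signal, already background-corrected and scaled by that program. Per the submitters' processing notes limma was also used, in a role not given in the sources used here. The deposited table of the series equals these processed intensities to within a relative difference of 0.00497. Probe positions are those of the array design (mm9).

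The log2 signal was then computed and each array's 75th percentile subtracted, over 43379 non-control spots (41174 probes), leaving out spots with an outlier mark (835 on the 6 arrays) and averaging spots of a probe. Probes had to be well above background on all arrays of 1 or more of the wild type and R-Cyp1b1-null groups of both diets at this age (26712 did), and each gene was represented by its brightest probe (18192 genes, among them transcripts without a symbol). Of the probes, 27816 were named by accession, 5503 by symbol and 380 by synonym in the RefSeq table (GRCm38.p6), and 7475 kept the name in the file. Groups were compared in R 4.3.3 with limma 3.58.1 (lmFit and eBayes), with Benjamini-Hochberg adjustment over all 18192 genes at a threshold of 0.05. All p-values are two-sided. The pools and arrays are the replicates. Both ± values and p-values rest on the spread between them, moderated by limma toward that of the other genes. The fit of 6 arrays left 4 residual degrees of freedom, with 9.39 more taken from the other genes. In the slide block fit these were 2 and 47.8, so its p-values rest mostly on the spread of the other genes. The sufficient wild type pool counted as 1 sample.

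An "at least" fold sets the brighter group's mean log2 signal against that of the dimmer one, each dim array being set at the higher of its own signal and the lowest signal well above background on that array. A probe not well above background has only such a bound. On simulated data for this contrast (17862 genes) the test recovered 0%, 10%, 82% and 88% of genes changed by 1, 2, 4 and 6 on the log2 scale, and 0%, 24%, 66% and 78% without wild type sample 3, with 0.0113% and 0.017% of unchanged genes called. The simulated noise was normal and independent between genes, with the same spread in both groups. It held no outlying array and no shift with signal, so these rates need not hold for the real arrays.

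The comparison and the 38 gene lists were chosen with earlier results of these data known. Genes were named by rule: 19 of the study's question (1 is not reported here), the 10 in each direction with the smallest p with and without wild type sample 3, up to 4 of each list by p, 5 in each direction for the interaction, and those called with the slide as a block. Examples were taken from these. Fasn, Id1, Smad6, Slc40a1, Tfrc, Top2a, Kif11, Mcm6, Pcna and Ppara were named for their role after their values were seen. Also added after seeing the data were the 8 lower genes among bright ones, ranked by p without wild type sample 3. The gene-by-gene array weights, the classes by mean signal and the iron list without the hepcidin genes were added then too. So were the medians of lists over bright members and under median centring.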

Additional observations from a re-analysis of the deposited data

How the results depend on the processing

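The number of arrays and the signal over background limit these results: with 3 against 3 arrays only large differences can pass, and most genes lower in R-Cyp1b1-null liver were dim there. Counts of calls moved with the processing, and the cause was not tested unless stated. The contrast with all 6 arrays called 0 genes, and again 0 with quantile normalization, the mean of the probes, no filter on dim probes, the series' own value table, all groups of both ages and all groups of this age in the fit. It called 1 with normexp correction, 8 with median centring, 6 among probes well above background on all 6 arrays and 2506 (256 higher and 2250 lower) with gene-by-gene array weights. Those weights were chosen after seeing the data, as the planned default weights did not converge. Leaving out 1 array gave 0 to 2740 calls, the most without wild type sample 2. Without wild type sample 3 the counts for the same settings were 0, with 2 after normexp correction, 19 after median centring, 2 under the stricter filter, 6 in the fit of all groups without both arrays of low correlation (wild type sample 3 is 1 of them) and 5 with array weights, and 0 to 2 on leaving out 1 more array. The interaction called 0 genes in all 7 settings, with 66 to 1499 at an unadjusted p under 0.05.

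The replicate numbers equal the slide numbers, so the slide block and the replicate block are the same fit, with 9 calls, and 0 without wild type sample 3. Deviations from the group means correlated at -0.195, 0.0169 and -0.209 between samples of the same number. Samples of different numbers were not set beside them, so these values do not decide whether samples were paired.

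Of the 78 genes named and tested, 61 kept their direction with all 6 arrays and 65 without wild type sample 3 under every alternative fit run. Under normexp correction the sign turned for Afp (-0.080), Rbp4 (-0.055), Slc40a1 (-0.17), Srebf1 (-0.092) and Srebf2 (-0.49) with all 6 arrays, and for Pnpla3 (0.024) and Slc40a1 (-0.28) without wild type sample 3. Under quantile normalization the sign turned for Afp (-0.076), Igf2 (0.13), Rbp4 (-0.021), Slc40a1 (-0.15), Srebf1 (-0.18) and Srebf2 (-0.53) with all 6 arrays, and for Rbp4 (0.057), Slc40a1 (-0.25) and Srebf1 (-0.00059) without wild type sample 3. Under median centring the sign turned for Cyp1a1 (0.16), Cyp7a1 (0.056), Igf2 (0.27), Pnpla3 (0.35), Sult1e1 (0.090) and Tgtp1 (0.050) with all 6 arrays, and for Afp (0.17), Cyp1a2 (0.080), Pnpla3 (0.48), Rbp4 (0.36), Sqle (0.46), Srebf2 (0.44) and Tfrc (0.22) without wild type sample 3. Under the stricter filter the sign turned for Kif11 (0.099) with all 6 arrays, and for Kif11 (0.52) without wild type sample 3. Under the mean of the probes the sign turned for Rarb (-0.68) and Top2a (-0.058) with all 6 arrays, and for Rarb (-0.33) without wild type sample 3. The fit of all groups without both arrays of low correlation, which leaves out wild type sample 3, turned the sign against the fit of 6 arrays for Afp (-0.40), Cyp1a2 (-0.49), Rbp4 (-0.21), Sqle (-0.11), Srebf2 (-0.13) and Tfrc (-0.35). Under array weights the sign turned for Afp (-0.53), Rbp4 (-0.18), Slc40a1 (-0.072), Srebf2 (-0.052) and Tfrc (-0.098) with all 6 arrays, and for Id1 (-0.015), Slc40a1 (-0.17) and Sqle (0.12) without wild type sample 3. Under the slide block the sign turned for Cyp1a2 (0.15), Id1 (-0.11), Slc40a1 (-0.22), Srebf1 (-0.089) and Tfrc (0.049) without wild type sample 3. Leaving out 1 array of the 6 gave ranges across 0 for Afp (-0.40 to 0.37), Cyp1a2 (-0.49 to 1.44), Rbp4 (-0.21 to 0.61), Sqle (-0.14 to 1.16), Srebf2 (-0.13 to 0.56), Tfrc (-0.35 to 0.54) and Top2a (-0.067 to 0.39). Leaving out 1 more array after wild type sample 3 gave ranges across 0 for Cyp1a2 (-0.82 to 0.15), Id1 (-0.11 to 0.30), Lrat (-0.0069 to 0.30), Pnpla3 (-0.24 to 0.16), Slc40a1 (-0.22 to 0.26), Sqle (-0.71 to 0.59), Srebf1 (-0.089 to 0.52), Srebf2 (-0.36 to 0.11) and Tfrc (-0.66 to 0.049). The slide block gives the same values when called a replicate block. The genes listed here have no settled direction in the fit named.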
